A study of Mus musculus with 9 samples.

Results

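The collagens and the enzymes that crosslink them were examined in NMuMG cells, an immortalized epithelial line of the mouse mammary gland. Members were every gene whose symbol names a collagen alpha chain, other than *Col17a1*, together with the lysyl oxidases *Lox* and *Loxl1* to *Loxl4* and the lysyl hydroxylases *Plod1* to *Plod3*. This gave 51 genes of the 52459 gene symbols in the files, of which 43 encode collagen chains, 5 lysyl oxidases and 3 lysyl hydroxylases. RNA-Seq of untreated cells was compared between 3 libraries of mock cells, which carry the empty pBICEP-based vector, 3 libraries of cells overexpressing the full lncRNA EPR (BC030870) and 3 libraries of cells overexpressing EPRSTOPE, a point mutant of EPR in which the second codon of its short open reading frame is a stop, so that its peptide is not made. All 9 libraries came from cells stably transfected and selected with G418 as transfectant pools, not single clones, and the sources used here do not say whether the 3 libraries of a group are separate pools. The study describes the libraries of a condition as biological replicates, and the p-values measure the spread between them. Mock, EPR and EPRSTOPE cells are separately transfected and selected populations. In every comparison, also those with mock, differences between populations cannot be told apart from effects of the transgene. A change "with EPR" or "with EPRSTOPE" therefore names a comparison with mock cells and not a cause.

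Fibril-forming collagens are trimers that assemble outside the cell into banded fibers, while type IV collagen forms the sheet-like network of basement membranes, on which epithelial cells rest. Type VII collagen builds the anchoring fibrils that tie the basement membrane to the stroma below, and type VI collagen forms beaded filaments close to it. Lysyl hydroxylases modify lysines of the chains inside the cell, and lysyl oxidases then convert lysines and hydroxylysines outside the cell so that neighboring molecules become covalently linked. Collagen genes and lysyl oxidases are widely known as part of the matrix program of epithelial to mesenchymal transition.

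The libraries held 5972457 to 11876435 estimated counts, so that 3 counts amounted to 0.253 to 0.502 counts per 1000000 counts (CPM). The overexpressed RNA, *BC030870*, had 0 to 2 counts per library in mock cells, 214 to 271 in EPR cells and 28 to 39 in EPRSTOPE cells, so the point mutant was present at a lower level than the full transcript. Of 8 epithelial markers, 5 had a count in mock cells, 8 in EPR and 6 in EPRSTOPE cells. Their summed level was 3693 to 4158 CPM in mock, 9490 to 10597 CPM in EPR and 10681 to 11018 CPM in EPRSTOPE libraries. Most of that sum was *Krt8* and *Krt18*, with 2108 ± 121 and 1526 ± 101 CPM in mock cells. *Cdh1* had 0.84 ± 0.46 CPM in mock, 556 ± 14 in EPR and 403 ± 23 CPM in EPRSTOPE cells (log2 fold changes 9.23 and 8.76). *Epcam* was at 0 in all mock libraries, at 3.63 ± 1.07 CPM in EPR and at 0.11 ± 0.11 CPM in EPRSTOPE cells. Of the 6 tested markers, 6 rose with EPR and 3 with EPRSTOPE, and 0 fell. Over all tested genes 15.2% were called higher with EPR and 15.6% with EPRSTOPE. *Epcam* reached 1 CPM only in EPR libraries, so with EPR a call on it could go only up. The fibroblast list, led by *Vim*, summed to 2536 to 2745 CPM in mock, 1643 to 1843 CPM in EPR and 3015 to 3233 CPM in EPRSTOPE cells, with *Dcn* and *Lum* under 1 CPM everywhere. *Pdgfra*, the only other fibroblast marker tested, rose in both comparisons, from 0 in all mock libraries to 1.19 ± 0.22 CPM with EPR and 1.30 ± 0.25 CPM with EPRSTOPE. It reached 1 CPM in no mock library, so its call against mock could go only up. The basal list summed to 10.4 to 11.6 CPM in mock, 1.14 to 1.66 CPM in EPR and 2.76 to 3.42 CPM in EPRSTOPE cells, with *Trp63* at 0 throughout. Of its 2 tested markers, *Acta2* had 10.1 ± 0.7, 1.17 ± 0.25 and 0.80 ± 0.61 CPM and fell in both comparisons, while *Krt14* had 0.90 ± 0.22 CPM in mock, 0 in all EPR libraries and 2.32 ± 0.92 CPM in EPRSTOPE cells, higher than mock in every EPRSTOPE library without passing the test (log2 fold change 1.37, adjusted p = 0.037). The endothelial and leukocyte lists stayed under 17 CPM and under 4 CPM. The part of these marker shifts in the collagen results was not tested. In such bulk samples, fewer cells that express a gene and less RNA per cell cannot be told apart.

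Of the 51 members, 21 reached 1 CPM in at least 3 libraries and were tested. A member is said to have risen or fallen when its adjusted p (edgeR's quasi-likelihood test, Benjamini-Hochberg over all 15370 genes tested) was under 0.01 and its log2 fold change beyond 0.5. In EPR against mock cells 9 of the 21 fell and 1 rose, where over all tested genes 12.9% were called lower and 15.2% higher (28.1% in either direction). In EPRSTOPE against mock cells 7 fell and 4 rose, beside 12.4% called lower and 15.6% higher among all genes (28.0% in either direction). Both comparisons use the same mock libraries. The median log2 fold change of the tested members was -0.48 with EPR and -0.26 with EPRSTOPE, against -0.01 and -0.04 over all tested genes. *Col5a3* reached 1 CPM only in the EPRSTOPE libraries and in EPR libraries 206 and 207, so its call with EPRSTOPE against mock could go only up. These shares describe the 21 and not the family of 51. *Col7a1*, *Col27a1*, *Col6a2*, *Loxl2* and *Loxl3* fell and *Col15a1* rose in both comparisons. *Col5a1*, *Col4a1*, *Col6a1* and *Col6a3* passed the test with EPR alone, and *Col12a1*, *Col16a1*, *Col11a2*, *Col5a3* and *Plod2* with EPRSTOPE alone. *Col18a1*, *Col26a1*, *Col4a2*, *Loxl4*, *Plod1* and *Plod3* did not pass in any comparison.

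**Figure D1:**
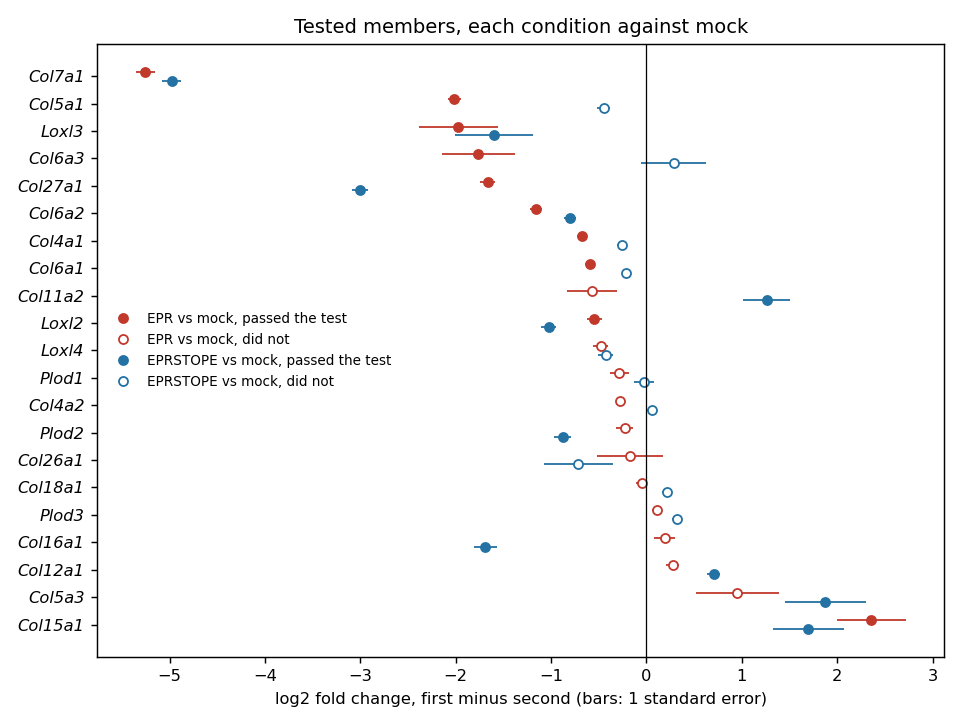
Log2 fold change (x axis, bars 1 standard error) of the 21 tested members in EPR against mock (red) and EPRSTOPE against mock (blue); filled points passed the test (9 lower and 1 higher with EPR, 7 lower and 4 higher with EPRSTOPE). *Col7a1* lies near -5 in both, and *Col16a1*, *Col11a2* and *Col5a1* have points far apart.

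The most abundant chains per length of RNA were *Col4a1* of the basement membrane and *Col6a1* of the beaded filaments. Because short partial transcripts take much of the TPM of some genes (in mock cells the long coding transcripts of *Col4a1* held 65.2% of its estimated counts but 13.0% of its TPM), levels of different genes were compared as CPM per kb of the longest coding transcript. In mock cells *Col4a1* had 185 ± 9.0 (SD, n = 3) and *Col6a1* 177 ± 7.1 CPM per kb, whose libraries overlapped, followed by *Col18a1* with 97.1 ± 4.5, *Col4a2* with 67.6 ± 2.5 and *Col6a2* with 54.3 ± 1.1 CPM per kb. The remaining members lay at or below the 34.4 ± 0.9 CPM per kb of *Col27a1*. *Col4a1* and *Col6a1* also led in EPR cells (116 ± 4.9 and 117 ± 1.4 CPM per kb) and in EPRSTOPE cells (155 ± 5.0 and 153 ± 3.4 CPM per kb), again with overlapping libraries. On the TPM scale *Col4a1* led *Col18a1* and *Col6a1* in all 3 groups.

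Summed over all 43 collagen chains, the level per length was 672 ± 24 CPM per kb in mock, 442 ± 11 in EPR and 559 ± 6.9 CPM per kb in EPRSTOPE cells (SD, n = 3 each). The basement membrane chains summed to 252 ± 11, 172 ± 7.1 and 225 ± 4.4 CPM per kb, and thus made up 37.5%, 38.9% and 40.2% of the collagen total in mock, EPR and EPRSTOPE cells. The fibril-forming chains went from 53.0 ± 1.8 CPM per kb in mock cells to 16.2 ± 0.8 with EPR and 19.9 ± 0.3 CPM per kb with EPRSTOPE, or from 7.9% to 3.7% and 3.6% of the collagen total. The multiplexins, carried by *Col18a1*, took 14.5% of the mock total, 21.5% with EPR and 20.3% with EPRSTOPE, while their summed level was 97.3 ± 4.5, 94.95 ± 4.96 and 114 ± 1.9 CPM per kb. The direction of the basement membrane share depended on the scale. By TPM it was lower than the 61.9 ± 3.0% of mock, at 54.9 ± 2.2% with EPR and 52.4 ± 8.7% with EPRSTOPE. The TPM of all chains was 1378 ± 139 in mock, 630 ± 63 with EPR and 857 ± 219 with EPRSTOPE. That of the multiplexins was 179 ± 17, 114 ± 8.3 and 181 ± 49. The part of the TPM on full-length coding transcripts also differed between the groups. It was 13.0%, 28.3% and 36.5% for *Col4a1* and 39.9%, 65.9% and 64.3% for *Col4a2* in mock, EPR and EPRSTOPE cells. It went the other way in both groups for *Col7a1*, *Col27a1* and *Col15a1*. The TPM sums thus mix chain level with the share of short transcripts, and these were not separated. The fibril-forming share fell by TPM too, from 4.4% to 3.0% with EPR and 3.0% with EPRSTOPE. These sums were not tested on either scale.

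**Figure D2:**
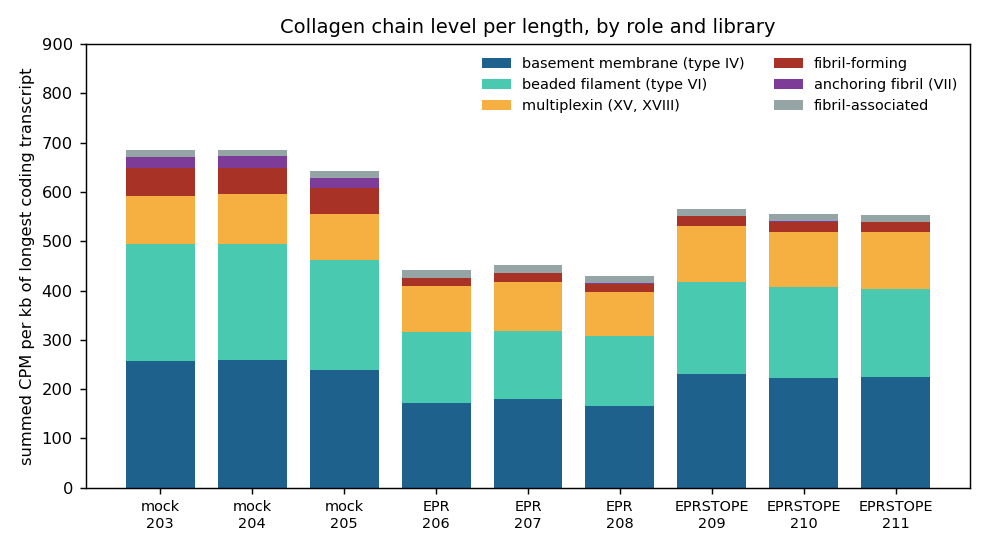
Stacked bars of the summed level of collagen chains (y axis, CPM per kb of the longest coding transcript, from 0) in each library, by role; the transmembrane, short-chain and other chains, each under 1.4 CPM per kb on average, are not drawn. The totals of all chains average 672 in mock, 442 in EPR and 559 in EPRSTOPE, and the purple layer of type VII is visible in mock only.

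Type VII collagen showed the largest change of the tested members in both comparisons with mock. *Col7a1* (ENSMUSG00000025650.12, chromosome 9 of GRCm38 from 108953586 to 108984875) encodes the single chain of the anchoring fibril. It had 206, 222 and 205 CPM in the mock libraries, 4.54, 6.19 and 5.98 CPM in the EPR libraries and 7.12, 6.51 and 6.56 CPM in the EPRSTOPE libraries. All mock libraries lay above 205 CPM and all others below 7.2 CPM. The log2 fold change was -5.26 with EPR (SE 0.10, adjusted p = 3.3e-12) and -4.98 with EPRSTOPE (SE 0.10, adjusted p = 5.3e-12), that is 38.2-fold and 31.5-fold lower. EPR and EPRSTOPE cells differed by -0.28 on the log2 scale (SE 0.12, adjusted p = 0.17), which did not pass the test. The low libraries still rest on 42 to 64 estimated counts each, well above 3 counts. Its share of the collagen total per length went from 3.4% in mock cells to 0.14% with EPR and 0.13% with EPRSTOPE. The 144 other tested genes within 5 Mb of *Col7a1* had a median log2 fold change of -0.08 with EPR and -0.12 with EPRSTOPE. For a single gene the exact permutation test of 3 libraries against 3 cannot go below p = 0.1, the value it gave for *Col7a1* in each comparison with mock.

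**Figure D3:**
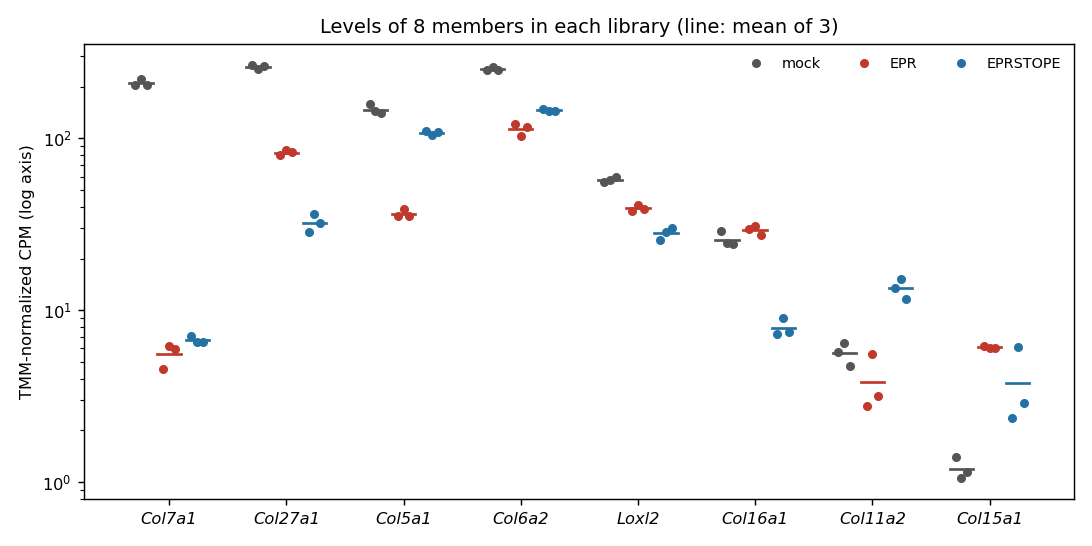
TMM-normalized CPM (y axis, log scale) of 8 members in each library, with a line at the mean of 3; gray is mock, red EPR and blue EPRSTOPE. *Col7a1* is at 205 CPM or more in mock and between 4.54 and 7.12 CPM in all 6 overexpressing libraries, *Col5a1* is lowest in EPR, and *Col27a1* and *Col16a1* are lowest in EPRSTOPE.

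Among the fibril-forming chains, *Col27a1* and *Col5a1* fell, but to different extents with the full transcript and the mutant. *Col27a1* (ENSMUSG00000045672.15, chromosome 4 from 63214004 to 63334991) encodes a fibrillar chain known from cartilage. Its levels were 268, 255 and 262 CPM in mock, 79.5, 85.2 and 83.1 CPM in EPR and 28.5, 36.5 and 32.1 CPM in EPRSTOPE libraries, with no overlap between any groups. It fell by 1.66 with EPR (SE 0.08, adjusted p = 7.2e-09) and by 3.01 with EPRSTOPE (SE 0.08, adjusted p = 7.4e-11) on the log2 scale, and EPR cells had 2.54-fold more than EPRSTOPE cells (log2 fold change 1.34, SE 0.08, adjusted p = 2.5e-07). Its full-length transcript Col27a1-201, which held 51.4% to 64.2% of the gene's counts in the 9 libraries, fell by 1.69 with EPR and by 3.13 with EPRSTOPE in the test of transcripts. *Col5a1* (ENSMUSG00000026837.15, chromosome 2 from 27886425 to 28039514) encodes a chain of type V collagen, which nucleates the fibrils of other types. Its levels were 157, 144 and 140 CPM in mock, 35.2, 38.8 and 35.1 CPM in EPR and 111, 104 and 108 CPM in EPRSTOPE libraries. The EPR libraries thus lay at about 36 CPM, and the EPRSTOPE libraries lay below mock but much closer to it. *Col5a1* was 4.04-fold lower with EPR (log2 fold change -2.02, SE 0.07, adjusted p = 5.1e-10), while the difference of EPRSTOPE from mock, -0.45 (SE 0.07, adjusted p = 0.00012), was too small to pass and passed with protein-coding transcripts alone (-0.52). EPR and EPRSTOPE cells differed by -1.57 (SE 0.07, adjusted p = 2.0e-08).

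The other fibril-forming chains were low. *Col11a2* (ENSMUSG00000024330.16, chromosome 17), a chain of type XI collagen that is known from cartilage, had 5.75, 6.44 and 4.72 CPM in mock, 2.79, 5.56 and 3.18 CPM in EPR and 13.6, 15.2 and 11.6 CPM in EPRSTOPE libraries. It rose with EPRSTOPE (log2 fold change 1.26, SE 0.24, adjusted p = 0.0010), and the difference with EPR, -0.57 (SE 0.26, adjusted p = 0.092), did not pass. The EPR library 207 overlapped the mock libraries, and without it the EPR difference was -0.90 with an adjusted p of 0.0089. *Col5a3*, a further type V chain, had 0.57 ± 0.23 CPM in mock cells, 1.15 ± 0.32 with EPR and 2.20 ± 0.25 CPM with EPRSTOPE (SD, n = 3), and its rise with EPRSTOPE (log2 fold change 1.88, SE 0.42, adjusted p = 0.0028) rests on mock levels near those of 3 counts. The call was lost without mock library 205 or EPRSTOPE library 210 (adjusted p = 0.0102 and 0.011). The chains that build the common type I and type III fibrils were nearly absent: *Col1a1* had 2 to 12 counts per library, *Col1a2* 0 to 4, and *Col3a1* 3 to 9 counts in EPRSTOPE libraries and 0 in all mock and EPR libraries. The fit without a filter called *Col3a1* in EPRSTOPE cells higher than in both others, with an adjusted p of 0.0021 against mock and 0.0029 against EPR. *Col5a2*, the usual partner of *Col5a1* in the trimer, had no count in any library.

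For *Col7a1*, *Col5a1* and *Col27a1*, the chains of at least 5 CPM that fell most with EPR, the 250 bases before the RefSeq start (GRCm38.p6, plus strand) are shown, with matches to 4 short motifs in capitals. The motifs searched on both strands were CAGGTG and CAGCTG (E-boxes, the latter its own reverse complement), CAGAC (the short SMAD-binding element, GTCTG on the other strand) and TATAAA. The only motif found in these 3 windows was GTCTG.

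Col7a1, chr9:108953336-108953585: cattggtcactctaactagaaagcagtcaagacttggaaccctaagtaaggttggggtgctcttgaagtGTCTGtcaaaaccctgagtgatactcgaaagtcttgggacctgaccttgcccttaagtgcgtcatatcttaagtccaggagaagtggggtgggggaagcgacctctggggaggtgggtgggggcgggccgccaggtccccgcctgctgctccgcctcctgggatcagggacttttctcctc

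Col27a1, chr4:63215162-63215411: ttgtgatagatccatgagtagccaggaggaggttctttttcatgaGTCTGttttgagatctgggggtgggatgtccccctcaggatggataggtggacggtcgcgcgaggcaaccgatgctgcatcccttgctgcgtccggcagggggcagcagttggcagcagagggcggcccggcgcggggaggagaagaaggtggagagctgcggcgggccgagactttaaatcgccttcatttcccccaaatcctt

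Col5a1, chr2:27886175-27886424: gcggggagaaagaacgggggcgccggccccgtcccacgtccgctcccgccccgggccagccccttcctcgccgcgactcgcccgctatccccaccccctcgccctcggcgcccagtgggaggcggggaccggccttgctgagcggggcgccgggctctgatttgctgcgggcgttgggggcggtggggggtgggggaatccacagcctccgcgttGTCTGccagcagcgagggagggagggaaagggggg

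The GTCTG match lies 181 bases before the start in *Col7a1*, 205 in *Col27a1* and 35 in *Col5a1*. A CAGAC match on either strand is common, being in 42.2% of the 32851 RefSeq promoter windows of this length and in 9 of the 18 windows matched to 16 tested members. CAGGTG was in 17.2% of all windows and in 1 of the 18, that of *Col16a1*, which also held CAGCTG (13.0% of all windows and 2 of the 18). TATAAA was in 12.4% of all windows and in 2 of the 18, those of *Col11a2* and *Plod1*. The *Col5a1* window was 76.4% GC and the *Col7a1* window 56.4%, beside a median of 52.4% over all windows. These matches describe letters in the windows and not binding.

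In the basement membrane network, *Col4a1* fell modestly with EPR and its partner *Col4a2* did not pass the test. *Col4a1* and *Col4a2* lie head to head on chromosome 8, with annotated starts 21 bases apart at 11312826 (minus strand) and 11312805 (plus strand), and their chains join in the trimer that is common to all basement membranes. *Col4a1* had 1222 ± 59 CPM in mock cells, 767 ± 32 with EPR and 1023 ± 33 CPM with EPRSTOPE (SD, n = 3), with a log2 fold change of -0.67 with EPR (SE 0.05, adjusted p = 6.1e-07) and of -0.26 with EPRSTOPE (SE 0.05, adjusted p = 0.0015). *Col4a2* had 436 ± 16, 361 ± 15 and 453 ± 5.1 CPM, with differences of -0.27 (SE 0.05, adjusted p = 0.00089) and 0.06 (SE 0.05, adjusted p = 0.40). Both genes were lower in each EPR library than in any mock or EPRSTOPE library. The *Col4a1* to *Col4a2* ratio of CPM per kb was 2.73 ± 0.04 in mock cells, 2.07 ± 0.03 with EPR and 2.20 ± 0.09 with EPRSTOPE, the mock libraries lying above all others. On the TPM scale the ratio was 6.33 ± 0.74, 4.16 ± 0.27 and 4.07 ± 1.77, and EPRSTOPE library 211 reached 6.05, among the mock values. The tissue-restricted chains of the family were not tested: *Col4a3* had 0 to 4 counts, *Col4a4* 0 to 10 and *Col4a6* 0 to 7 per library, and *Col4a5* had none.

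The type VI chains fell together with EPR, but not to the same extent. The trimer of type VI collagen is built from the products of *Col6a1*, *Col6a2* and one further gene such as *Col6a3*, and the first 2 genes lie 85.2 kb apart on chromosome 10. *Col6a2* (ENSMUSG00000020241.13, 76595762 to 76623630) had 248, 259 and 251 CPM in mock, 120, 103 and 117 CPM in EPR and 148, 144 and 144 CPM in EPRSTOPE libraries. The 3 groups did not overlap. It fell by 1.16 with EPR (SE 0.06, adjusted p = 3.4e-08) and by 0.80 with EPRSTOPE (SE 0.06, adjusted p = 7.2e-07). *Col6a1* went from 725 ± 29 CPM in mock to 481 ± 5.7 in EPR (log2 fold change -0.59, SE 0.05, adjusted p = 7.6e-07) and to 626 ± 14 CPM in EPRSTOPE cells (log2 fold change -0.21, SE 0.05, adjusted p = 0.0028), the latter too small to pass. The *Col6a1* to *Col6a2* ratio of CPM per kb accordingly was 3.26 ± 0.15 in mock cells, 4.84 ± 0.37 with EPR and 4.89 ± 0.11 with EPRSTOPE, with every mock library below every other. That further chain was scarce. *Col6a3* had 2.25 ± 0.57 CPM in mock cells, 0.65 ± 0.13 with EPR and 2.80 ± 0.70 CPM with EPRSTOPE, or 0.22 CPM per kb in mock against 177 for *Col6a1*. It fell with EPR (log2 fold change -1.76, SE 0.38, adjusted p = 0.0022) and differed by -2.05 between EPR and EPRSTOPE cells (SE 0.38, adjusted p = 0.0016). Without mock library 204 or EPR library 207 the fall with EPR lost its call (adjusted p = 0.0109 and 0.010). Of its alternatives, *Col6a4* had no count, *Col6a5* 0 to 6 and *Col6a6* 0 to 4 counts per library. *Col6a5* had 4 to 6 counts in each mock and 0 in each EPRSTOPE library, and the fit without a filter called it lower with EPRSTOPE (adjusted p = 0.0082).

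Of the 9 fibril-associated chains, which sit on the surface of other fibrils, *Col12a1* and *Col16a1* were tested and moved with EPRSTOPE. *Col16a1* (ENSMUSG00000040690.15, chromosome 4 from 130047840 to 130099283), a minor collagen, had 28.7, 24.5 and 24.2 CPM in mock, 29.8, 31.1 and 27.3 CPM in EPR and 7.28, 8.97 and 7.48 CPM in EPRSTOPE libraries. All EPRSTOPE libraries lay below 10 CPM, and the mock and EPR libraries overlapped above 24 CPM. The gene fell with EPRSTOPE (log2 fold change -1.69, SE 0.12, adjusted p = 3.0e-07) and was 3.68-fold higher in EPR than in EPRSTOPE cells (log2 fold change 1.88, SE 0.12, adjusted p = 4.3e-07), while EPR differed from mock by 0.19 (SE 0.11, adjusted p = 0.17). Between 48.7% and 66.6% of its counts in the groups were assigned to Col16a1-209, a transcript annotated for nonsense-mediated decay. With protein-coding transcripts alone the EPRSTOPE difference was -2.49 and did not pass (adjusted p = 0.088). *Col12a1*, with 87.7 ± 6.6 CPM in mock cells, 106 ± 4.2 with EPR and 143 ± 6.6 CPM with EPRSTOPE, rose with EPRSTOPE (log2 fold change 0.71, SE 0.07, adjusted p = 3.7e-06); its difference with EPR was 0.27 (SE 0.07, adjusted p = 0.0055).

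Of the 2 multiplexins, basement membrane collagens that carry glycosaminoglycan chains, *Col15a1* was scarce and *Col18a1* was among the most abundant chains. *Col15a1* (ENSMUSG00000028339.17, chromosome 4) had 1.40, 1.06 and 1.14 CPM in mock, 6.20, 6.06 and 6.07 CPM in EPR and 2.37, 6.09 and 2.88 CPM in EPRSTOPE libraries. It was the only tested member that rose in both comparisons with mock, by 2.36 with EPR (SE 0.36, adjusted p = 0.00018) and by 1.70 with EPRSTOPE (SE 0.37, adjusted p = 0.0026). The EPRSTOPE value depended on library 210, without which it was 1.16 with an adjusted p of 0.011 and the difference between EPR and EPRSTOPE passed (1.20, adjusted p = 0.0088), and the call was also lost without mock library 204 or 205 (adjusted p = 0.013 for each). *Col18a1*, the precursor of endostatin, had 543 ± 25 CPM in mock cells, 525 ± 28 with EPR and 631 ± 13 CPM with EPRSTOPE, with differences of -0.05 (SE 0.05, adjusted p = 0.49) and 0.22 (SE 0.05, adjusted p = 0.0060). Its transcript Col18a1-202 held 90.1% of the counts in mock and 96.5% in EPR cells on average. The TPM of *Col18a1* was lower with EPR, at 178 ± 17 in mock and 108 ± 8.7 in EPR cells, and its full-length coding transcripts held 43.1% of that TPM in mock and 78.7% in EPR cells.

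Among the lysyl oxidases, *Loxl2* and *Loxl3* fell with both forms of EPR. *Loxl2* (ENSMUSG00000034205.16, chromosome 14 from 69609068 to 69695834), an oxidase that is known to act on type IV collagen, had 55.9, 56.9 and 59.3 CPM in mock, 37.9, 41.2 and 39.1 CPM in EPR and 25.6, 28.5 and 30.3 CPM in EPRSTOPE libraries. The groups did not overlap, and EPRSTOPE cells were lowest. It fell by 0.55 with EPR (SE 0.08, adjusted p = 0.00010) and by 1.03 with EPRSTOPE (SE 0.08, adjusted p = 6.1e-07). Its neighborhood was shifted the other way: the 65 other tested genes within 5 Mb had median log2 fold changes of 0.86 with EPR and 0.93 with EPRSTOPE, and the other tested genes of chromosome 14 of 0.49 and 0.59. *Loxl3* was near the floor, with 4.10 ± 0.27 CPM in mock cells, 1.01 ± 0.64 with EPR and 1.37 ± 0.40 CPM with EPRSTOPE (log2 fold changes -1.97, SE 0.41, adjusted p = 0.0017, and -1.59, SE 0.41, adjusted p = 0.0067). Leaving out any 1 mock or EPRSTOPE library took the EPRSTOPE call of *Loxl3* to adjusted p-values from 0.011 to 0.028, past the threshold. *Loxl4*, the most abundant oxidase per length in each group, had 113 ± 3.8 CPM in mock cells, 80.8 ± 7.8 with EPR and 83.6 ± 6.3 CPM with EPRSTOPE, and its differences of -0.48 and -0.43 (SE 0.08 each, adjusted p = 0.00033 and 0.00081) stayed just under the fold threshold; the EPR difference passed it without mock library 203 or EPR library 208 (-0.51 and -0.54). The median of the 113 tested genes within 5 Mb of *Loxl4* on chromosome 19 was -0.05 with EPR and -0.56 with EPRSTOPE. *Lox* had 0 to 2 counts per library. *Loxl1*, which acts on elastic fibers, was below the filter, but its 8 to 16 counts in each mock library faced 0 counts in all 6 EPR and EPRSTOPE libraries. Against 3 counts over the 3 libraries of a group, it was at least 13.1-fold lower with EPR and at least 10.7-fold lower with EPRSTOPE, and the fit without a filter called it in both (adjusted p = 8.2e-06 and 2.9e-05).

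Of the lysyl hydroxylases, only *Plod2* passed the test. It had 70.8 ± 3.8 CPM in mock cells, 60.4 ± 4.0 with EPR and 38.6 ± 4.4 CPM with EPRSTOPE. It fell with EPRSTOPE (log2 fold change -0.88, SE 0.09, adjusted p = 6.2e-06), differed by 0.65 between EPR and EPRSTOPE (SE 0.09, adjusted p = 0.00019), and by -0.23 between EPR and mock (SE 0.09, adjusted p = 0.048). *Plod1* had 45.6 ± 3.8, 37.3 ± 4.2 and 44.9 ± 3.5 CPM, and *Plod3* had 85.6 ± 2.3, 92.2 ± 2.4 and 107 ± 1.1 CPM in mock, EPR and EPRSTOPE cells, with no difference that passed the test. *Plod2* is known for a short alternatively spliced exon, whose inclusion gives the long enzyme that hydroxylates lysines in the telopeptides. In Gencode M21 this exon of 63 nt is number 14 of 20 in the transcript Plod2-203 and absent from Plod2-201 (chromosome 9 of GRCm38 from 92601985 to 92602047, plus strand), and it adds 21 codons to the coding sequence. The exon is shown in capitals with 12 bases of the neighboring exons on each side.

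Plod2 exon: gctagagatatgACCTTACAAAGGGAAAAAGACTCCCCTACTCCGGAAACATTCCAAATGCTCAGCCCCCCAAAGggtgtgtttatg

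Plod2-201, without the exon, took 28.1%, 21.8% and 10.96% of the counts of the 2 transcripts in the mock libraries, 41.8%, 37.3% and 48.5% in the EPR libraries and 46.0%, 16.7% and 23.9% in the EPRSTOPE libraries. The EPR libraries lay above all mock libraries, and the EPRSTOPE libraries overlapped both. Neither transcript passed the test of transcripts in EPR against mock (adjusted p = 0.31 for Plod2-201 and 0.067 for Plod2-203, over 45412 transcripts), and Plod2-203 fell with EPRSTOPE (log2 fold change -0.91, SE 0.15, adjusted p = 0.0069). These values are estimates that kallisto divides between 2 nearly identical transcripts, on 48.8 to 305 estimated counts for Plod2-201.

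**Figure D4:**
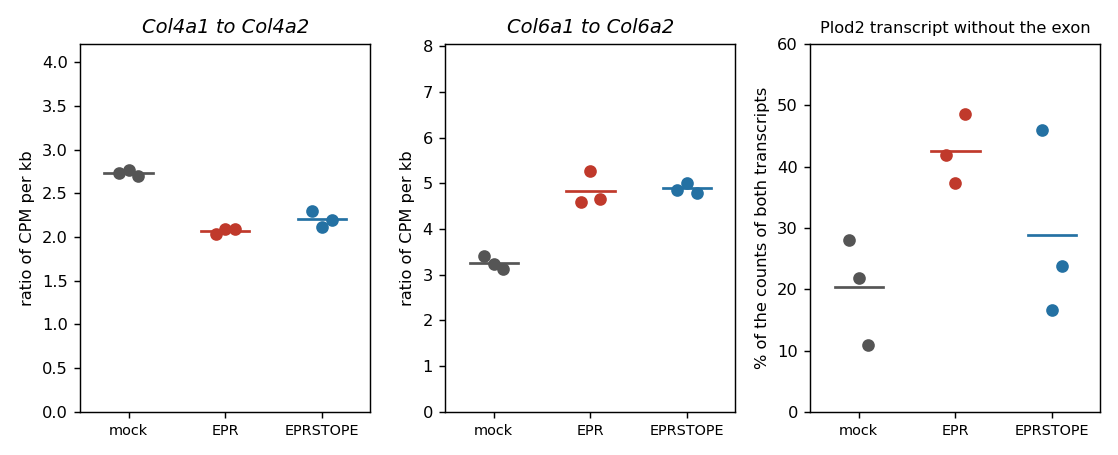
Left and middle, ratio of CPM per kb of *Col4a1* to *Col4a2* and of *Col6a1* to *Col6a2* in each library (line at the mean of 3); right, percent of the counts of both *Plod2* transcripts that fell to the transcript without the 63 nt exon. Mock libraries are separate from the others in both ratios, at 2.70 to 2.77 and at 3.13 to 3.42, and the exon-less share is 37.3% to 48.5% in EPR against 10.96% to 28.1% in mock.

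The direct comparison of EPR with EPRSTOPE was passed by 6 of the 21 members, beside 13.2% of all tested genes. These groups differ in the peptide and, here, in the level of the transgene RNA, and they are separately transfected populations. *Col16a1*, *Col27a1* and *Plod2* were higher and *Col6a3*, *Col11a2* and *Col5a1* lower in EPR cells. With length-scaled TPM, *Col6a3*, *Col11a2*, *Col16a1* and *Plod2* lost the call (adjusted p = 0.026, 0.026, 0.0103 and 0.044), and *Col27a1* and *Col5a1* kept it. The remaining 15 had differences between -0.92 (*Col5a3*, adjusted p = 0.094) and 0.66 (*Col15a1*, adjusted p = 0.15), several of which had an adjusted p under 0.01 at a size under the fold threshold, such as *Col4a1* with -0.41 (adjusted p = 9.3e-05) and *Loxl2* with 0.48 (adjusted p = 0.00087), which passed without EPR library 206 or EPRSTOPE library 211 (0.51 and 0.53). *BC030870* RNA was at 23.7 to 27.0 CPM in EPR and 3.80 to 4.74 CPM in EPRSTOPE libraries. The part of this gap in the differences cannot be told apart from that of the mutation or of the separate transfections. In this comparison the 476 tested genes of chromosome 19 other than *Loxl4* had a median log2 fold change of 0.55. The other tested genes of chromosome 2, which holds *Col5a1*, and of chromosome 4, which holds *Col27a1*, had medians of 0.02 and -0.08.

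**Figure D5:**
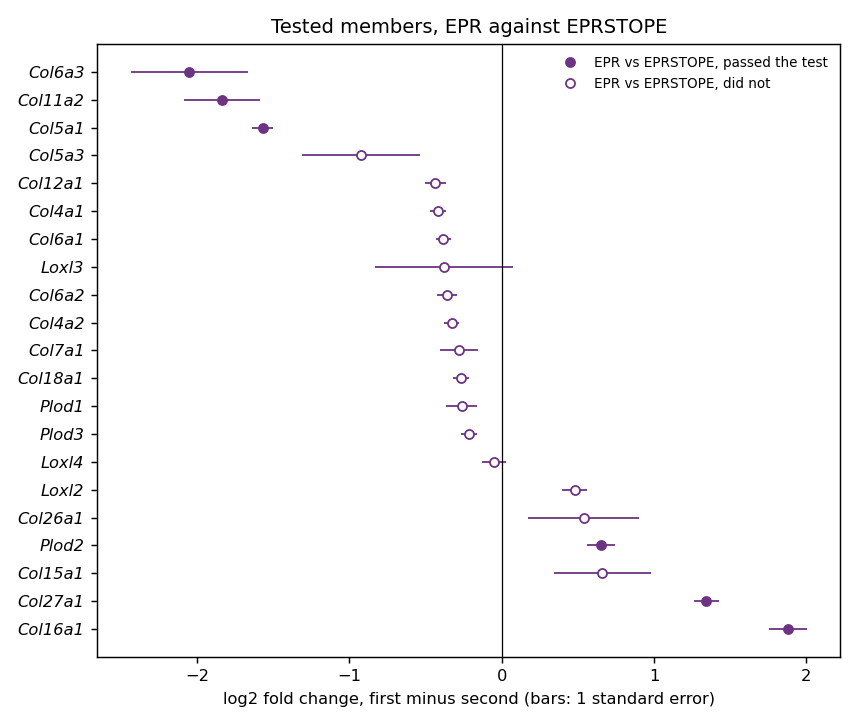
Log2 fold change of EPR against EPRSTOPE (x axis, bars 1 standard error) for the 21 tested members; filled points passed the test. *Col6a3*, *Col11a2* and *Col5a1* lie between -2.05 and -1.57 and *Plod2*, *Col27a1* and *Col16a1* between 0.65 and 1.88.

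In the test of single transcripts, 69 of the 244 annotated member transcripts were tested, from 20 members. With EPR 5 were called, beside 4.07% of all transcripts, and with EPRSTOPE 6, beside 4.64%. These included the main coding transcripts Col27a1-201 and Col6a2-201 in both, Col5a1-201 and Col6a1-201 with EPR and Loxl2-201 with EPRSTOPE. Between EPR and EPRSTOPE 2 were called, Col27a1-201 and Col5a1-201, beside 0.854%. The 2 coding transcripts of *Col7a1* share the same coding length of 8832 nt and neither passed alone against mock; the share of the gene assigned to Col7a1-202 ran from 38.5% to 92.8% among the mock libraries alone, so the split between them is not read here. All counts of *Col26a1*, with 3.66 ± 0.50 CPM in mock, lay outside its full-length coding transcripts, most on a retained-intron fragment of 578 nt (72.7% in mock), and it is not taken as expressed chain RNA. *Col5a1*, *Col4a1* and *Col4a2*, *Loxl2*, *Loxl3*, *Plod2* and *Plod3* overlap exons of a gene on the other strand that was also measured. The libraries came from a stranded kit, and the strand setting of the counting is not given in the sources used here. The partners of *Loxl3* and *Plod3* (*Htra2* and *Znhit1*) reached 64.5 and 24.6 CPM, and those of *Col5a1*, *Loxl2* and *Plod2* stayed under 4 CPM.

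The remaining untested members were close to silent in all 3 groups. *Col13a1* and *Col9a1* had no count, and *Col2a1*, *Col8a2*, *Col9a2*, *Col9a3*, *Col10a1*, *Col11a1*, *Col14a1*, *Col19a1*, *Col20a1*, *Col22a1*, *Col23a1*, *Col24a1*, *Col25a1* and *Col28a1* had at most 18 counts in any library. *Col8a1*, a network collagen known from the basement membranes of endothelium and cornea, had 2 to 6 counts in each EPR library and none in the 6 others. That was at least 3.85-fold more than mock when 3 counts over the group are the floor. The fit without a filter did not call *Col8a1* (adjusted p = 0.024 against mock and 0.049 against EPRSTOPE). At this depth lower levels of these genes could not be seen.

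The genes that modify and process collagen moved in both directions. Of the 14 tested genes of hydroxylation and folding, 6 rose and 3 fell with EPR, and 7 rose and 3 fell with EPRSTOPE, beside 15.2% higher and 12.9% lower of all tested genes with EPR and 15.6% and 12.4% with EPRSTOPE. The median log2 fold changes were 0.41 and 0.50. Among those that fell, *P4ha3* reached 1 CPM only in mock libraries, and *P3h3* only there and in EPRSTOPE library 209. Their calls against mock could therefore go only down. *Colgalt1*, a galactosyltransferase of hydroxylysine, rose from 196 ± 5.0 CPM in mock cells to 338 ± 7.5 with EPR and 427 ± 14 CPM with EPRSTOPE (log2 fold changes 0.78 and 1.12). *P3h1*, a prolyl 3-hydroxylase, rose from 12.4 ± 1.5 to 24.8 ± 4.7 and 33.0 ± 4.0 CPM, and *Fkbp14*, a prolyl isomerase of the endoplasmic reticulum, from 1.77 ± 0.20 to 8.42 ± 0.49 and 7.71 ± 1.80 CPM. *P3h2*, which is known to act on type IV collagen, fell from 35.5 ± 2.8 to 7.30 ± 1.27 and 9.22 ± 1.09 CPM (log2 fold changes -2.29 and -1.94). Of 4 tested genes of collagen secretion, *Sec24d*, a cargo adaptor of the COPII coat, rose in both comparisons (0.57 and 0.53), and the rise with EPRSTOPE fell under the fold threshold without mock library 205 (0.49).

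In propeptide cleavage, the C-proteinase *Bmp1* rose and the N-proteinase *Adamts14* fell in both comparisons. Of the enhancers of the C-proteinase, *Pcolce* fell in both and *Pcolce2* with EPR alone. *Bmp1*, the procollagen C-proteinase, rose from 40.9 ± 2.0 CPM in mock cells to 91.8 ± 5.0 with EPR and 122 ± 5.9 CPM with EPRSTOPE (log2 fold changes 1.17 and 1.58). *Pcolce*, an enhancer of that proteinase, fell from 129 ± 11 to 15.7 ± 2.5 and 20.4 ± 0.2 CPM (-3.05 and -2.67). *Pcolce2*, the second enhancer, had 78.2 ± 5.5 CPM in mock cells, 19.8 ± 2.3 with EPR and 84.5 ± 3.5 CPM with EPRSTOPE, so that it fell with EPR (log2 fold change -1.98), did not pass with EPRSTOPE (0.11, adjusted p = 0.30) and the direct difference passed as well (EPR against EPRSTOPE -2.09, SE 0.09, adjusted p = 1.8e-08). *Adamts14*, a procollagen N-proteinase, had 5.06 ± 0.51 CPM in mock, 0.80 ± 0.27 in EPR and 0 counts in all EPRSTOPE libraries. It fell with EPR (log2 fold change -2.61, adjusted p = 0.00022) and with EPRSTOPE (adjusted p = 6.2e-06). With 3 counts over the group as the floor, its EPRSTOPE level was at least 43.0-fold below mock. Over the 5 tested genes of this list 1 rose and 3 fell in each comparison with mock, beside the same shares of all genes. *Adamts3* reached 1 CPM only in mock libraries, and *Adamts14* only there and in EPR library 206. Their calls against mock could therefore go only down.

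Of the 5 tested collagen receptors, *Itga2*, the alpha chain of a collagen-binding integrin, rose from 136 ± 4.0 CPM in mock to 448 ± 9.5 CPM in EPR cells (log2 fold change 1.72, SE 0.07, adjusted p = 2.9e-09) and had 139 ± 14 CPM in EPRSTOPE cells. *Itga1*, the alpha chain of the other main collagen-binding integrin, fell with EPRSTOPE from 16.7 ± 1.8 to 4.28 ± 0.64 CPM (-1.96, SE 0.18, adjusted p = 3.0e-06) and had 11.8 ± 2.1 CPM in EPR cells. The receptor tyrosine kinase *Ddr1* rose in both comparisons (0.55 and 0.64). Among proteoglycans and matricellular proteins only *Sparc* was tested, at 370 ± 21, 379 ± 7.7 and 413 ± 8.1 CPM, and it did not pass. Over all 5 lists, 10 of 29 tested genes rose and 6 fell with EPR, and 10 rose and 7 fell with EPRSTOPE, beside the same shares of all genes as above. The limit given for genes that met the filter through mock libraries holds here too. Between EPR and EPRSTOPE 3 were higher and 1 lower, beside 6.86% and 6.35% of all tested genes, which in total is near the 13.2% called over all genes.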

How the data were processed

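RNA-Seq of 9 libraries of untreated NMuMG cells was used, 3 each of mock, EPR and EPRSTOPE, grouped by the sample titles. The authors quantified paired-end reads with kallisto 0.43.1 on Gencode mouse transcripts (GRCm38.p5) and deposited, per transcript, estimated counts without normalization and TPM, which the authors scaled by effective length to 1000000 per library. The strand setting was not given in the sources used here. Estimated counts were summed per gene symbol and rounded, a gene was kept at 1 CPM or more in 3 or more libraries (15370 genes), and edgeR 4.0.16 (R 4.3.3; TMM, quasi-likelihood test, 1 factor of 3 levels over 9 libraries, Benjamini-Hochberg) was fitted. The 45412 transcripts passing the same filter were tested likewise. CPM are TMM-normalized, and standard errors come from the F statistic. The fit was tested on simulated counts.

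The members, lists and tests were chosen with earlier results of these data known. Members called with a log2 fold change beyond 1 and at least 5 CPM in the highest group are given in every library, and up to 4 called genes per list with at least 5 CPM are named. Exact permutation tests (two-sided, log2(CPM + 1)) compared single members. Positions and the *Plod2* exon came from Gencode M21 (GRCm38) and promoters from RefSeq (GRCm38.p6). Replicate libraries differed by more than sampling noise (chi-square per degree of freedom of 4.63 to 9.59). Floors of 3 counts cover counting error only. Alternatives were RLE size factors, DESeq2 1.42.0, limma 3.58.1 with voom, other filters, length-scaled TPM, protein-coding transcripts only, the compared libraries only, a fold threshold of 1 and leaving out each library. CPM per kb and windows of 5 Mb were added after seeing the data.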

Additional observations from a re-analysis of the deposited data

Results flagged for a closer look

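There were 3 members that had effects of opposite sign in EPR and EPRSTOPE cells and a difference between the effects that passed the test. The effect on *Col6a3* differed by -2.05 (EPR minus EPRSTOPE, log2 scale), from -1.76 and 0.28 against mock, on levels of at most 3.56 CPM. The effect on *Col11a2* differed by -1.84, from -0.57 and 1.26. The effect on *Col16a1* differed by 1.88, from 0.19 and -1.69. In each of the 3 genes, the smaller of the 2 effects against mock did not pass the test by itself. The 3 differences are those of the direct comparison given above, and each lost its call with length-scaled TPM.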

How the results depend on the processing

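No member or named gene reversed its direction in any alternative where either fit called it, and 1028 of 1067 refitted values of the members stayed on the same side of the threshold. With length-scaled TPM, 1 member was lower in EPR than in EPRSTOPE cells in place of 3, and 6 genes of the biosynthesis, processing and receptor lists were higher in place of 10 with EPR and with EPRSTOPE alike. Calls over all genes also fell under that setting, from 4316 to 3053 with EPR, from 4302 to 3082 with EPRSTOPE and from 2031 to 940 between EPR and EPRSTOPE. With a log2 fold change beyond 1, 3 of those lists' genes were higher with EPR and 4 with EPRSTOPE. Without a filter, 10 members were lower with EPR, and 5 higher and 9 lower with EPRSTOPE. Leaving out single libraries gave 2 to 4 members higher with EPRSTOPE (2 without mock library 205 or EPRSTOPE library 210), and 4 to 7 list genes lower with EPRSTOPE (4 without mock library 204 or 205). The cause of these changes was not tested. Length-scaled TPM also took *Col6a1*, *Loxl2* and *Loxl3* under the threshold in EPR against mock (adjusted p = 0.054, 0.055 and 0.033) and *Col6a2*, *Col11a2* and *Loxl3* in EPRSTOPE against mock (0.015, 0.10 and 0.083). It took 4 members under it in EPR against EPRSTOPE, as given above, while *Col4a2* passed in EPR against mock (-0.60, adjusted p = 0.0074) and *Col15a1* in EPR against EPRSTOPE (1.34, adjusted p = 0.0083). The basement membrane share of the collagen total and the *Col4a1* to *Col4a2* and *Col6a1* to *Col6a2* ratios moved with the scale. The values of the share and of the *Col4a1* to *Col4a2* ratio are given above. No paired analysis was possible because no replicate number is shared between the groups. Members below about 1 CPM are limited by depth.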
